A study of Mus musculus with 12 samples.

Results

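The hnRNP and SR splicing factor genes were taken as every gene whose name begins with Hnrnp, or with Srsf followed by a number, leaving out 1 name that marks a pseudogene. This gave 31 genes of the 48526 listed, 20 of them hnRNP genes and 11 SR genes. RNA was sequenced from whole cortex of untreated C57Bl/6 mice aged 3 or 10 months. At each age, mice carrying the TAU58/2 transgene were set against non-transgenic controls, with 3 mice per group and 12 libraries in all. The transgene drives a human tau carrying P301S, a mutation linked to inherited frontotemporal dementia, from a Thy1 promoter that is active in neurons. The controls carry no transgene, and the labels used here do not give the sex of the mice. Libraries are named by age, genotype label and replicate number.

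Heterogeneous nuclear ribonucleoproteins (hnRNPs) coat newly made transcripts, and many of them block the use of splice sites or carry mRNA within the cell. SR proteins, named for their stretches of serine and arginine, bind exonic enhancers and recruit the splicing machinery, and their activity is set by SR protein kinases. Members of both families take part in whether neurons include tau exon 10, and many SR genes limit their own level by splicing in exons that send the transcript to nonsense-mediated decay.

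Values are FPKM, fragments scaled by transcript length and by the size of the library, so they can be compared between genes. FPKM summed over all genes lay between 125933 and 158077 per library, and between 12828 and 13914 genes were above 0. The deposited files give no read counts, so the absolute depth is unknown. The tau gene Mapt followed the genotype labels at 3 months, at 47.6, 47.5 and 43.3 FPKM in the transgenic libraries against 6.64, 12.0 and 7.47 FPKM in controls. At 10 months it did not: the libraries labelled transgenic were at 42.6, 12.4 and 3.31 FPKM and the libraries labelled control at 42.7, 8.13 and 9.08 FPKM. Directions at 10 months therefore refer to the labels, and "labelled" is used for these libraries. Mapt is the mouse gene, and how reads of the human transgene were counted is not given. Its values are therefore not a direct measure of the transgene at either age. Summed markers of neurons, astrocytes, oligodendrocytes and microglia were above 0 in every library. No summed list of these 4 separated the genotypes at either age, but single genes did. The neuron gene Rbfox3 was lower in transgenic libraries at 3 months. At 10 months the astrocyte gene Slc1a2 was lower in libraries labelled transgenic, at 7.96, 10.3 and 3.66 FPKM against 44.2, 158 and 165 FPKM. The oligodendrocyte gene Mag was higher in them. Gad2, Gja1 and P2ry12 were each at 0 in some libraries. Pituitary hormone genes reached a summed 13416 FPKM in the 10-month library labelled transgenic 1, and choroid plexus genes 729 FPKM in 3-month control 1. In whole cortex, fewer cells of a type and less RNA per cell cannot be told apart.

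The promoter windows of the SR gene Srsf7 and the hnRNP gene Hnrnpc are shown because these genes carried the lowest p-values of their families in the comparisons of genotype. Both are RefSeq sequences on GRCm38.p6, written 5' to 3' on the gene's own strand, from 250 bases before to 50 bases after the start of the gene. Capitals mark the SP1 box GGGCGG and the CCAAT box, each searched on both strands. The Srsf7 window lies at chr17:80207256-80207555 and the Hnrnpc window at chr14:52103972-52104271, both on the minus strand.
Srsf7: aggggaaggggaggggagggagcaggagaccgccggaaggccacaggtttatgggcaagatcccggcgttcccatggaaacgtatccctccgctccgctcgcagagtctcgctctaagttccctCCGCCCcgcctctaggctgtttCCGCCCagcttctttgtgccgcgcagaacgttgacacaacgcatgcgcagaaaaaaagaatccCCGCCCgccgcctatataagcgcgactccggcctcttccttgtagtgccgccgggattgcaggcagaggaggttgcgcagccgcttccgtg
Hnrnpc: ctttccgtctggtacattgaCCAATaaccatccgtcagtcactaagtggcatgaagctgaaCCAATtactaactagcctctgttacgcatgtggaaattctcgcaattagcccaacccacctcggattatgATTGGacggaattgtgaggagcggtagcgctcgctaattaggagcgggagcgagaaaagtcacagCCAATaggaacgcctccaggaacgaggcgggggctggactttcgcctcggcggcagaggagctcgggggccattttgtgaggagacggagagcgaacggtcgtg
The Srsf7 window held 28 CpG pairs, 3 SP1 boxes and no CCAAT box. The Hnrnpc window held 22 CpG pairs, 4 CCAAT boxes and no SP1 box. RefSeq windows were found for 29 of the 31 genes, 41 windows in all. The SP1 box was in 82.9% of them, against 35.7% of all 32851 promoter windows of that length. The CCAAT box was in 51.2% against 37.4%, the TATA box TATAAA in 9.76% against 13.6%, and the cAMP response element TGACGTCA in none against 1.79%. The median window of these genes held 31 CpG pairs and the median of all windows 7. Some of the 41 windows come from the same gene and overlap, as for Srsf4 and Hnrnph1, so these shares count windows and not genes. A match to such letters describes the window and does not show that a factor binds there.

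Most members were expressed in cortex. Averaged over the 12 libraries, 13 members reached at least 10 FPKM, 15 lay between 1 and 10 FPKM, and 3 were under 1 FPKM. Together they took 0.18% to 0.309% of all FPKM in a library. The summed hnRNP genes ranged from 159.1 to 273.2 FPKM and the summed SR genes from 93.5 to 126.1 FPKM, both highest in the 10-month library labelled control 3. The highest means belonged to Hnrnpul2 at 21.4 FPKM, Hnrnpk at 21.3 FPKM and Srsf2 at 20.99 FPKM, and these neighbours in the order did not differ beyond their spread. Of the 30 members above 0 in any library, 13 had a coefficient of variation under 25% over the 12 libraries, 7 had 25% to 50%, and 10 had more than 50%. The median residual SD within groups was 0.43 on the log2 scale for tested members and 0.73 for all tested genes.

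**Figure D1:**
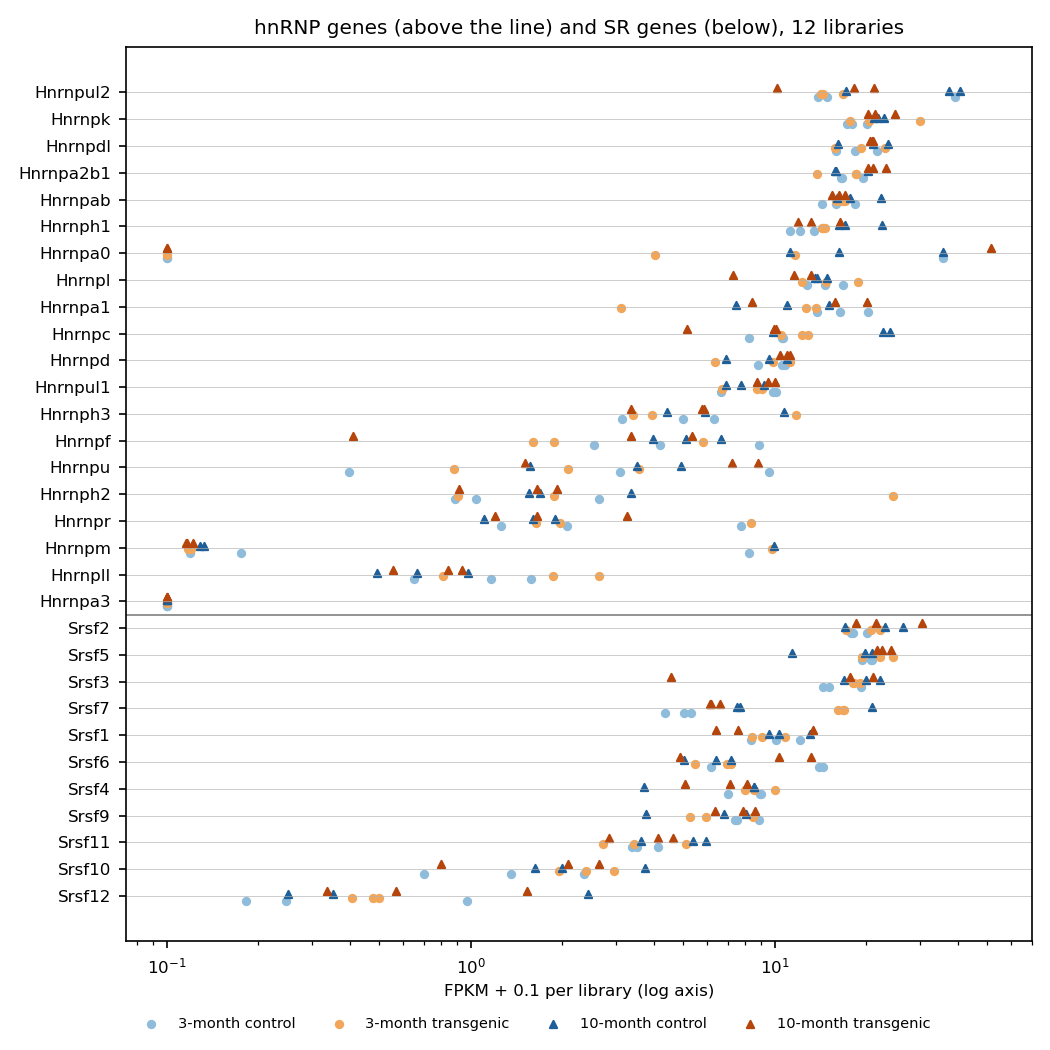
FPKM plus 0.1 of the 31 genes in each of the 12 libraries on a log axis, hnRNP genes above the line and SR genes below it, coloured by age and genotype label. The abundant genes from Hnrnpk to Hnrnpab keep all libraries close together, while Hnrnpm and Hnrnpa0 split into high and low libraries and Hnrnpa3 is at 0 in all 12.

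The genotype comparisons asked which genes differ between TAU58/2 and control cortex at each age. A gene was tested where at least 1 group mean reached 1 FPKM, which kept 29 members (19 hnRNP and 10 SR genes) among 9846 genes. Hnrnpa3 and Srsf12, a little-expressed SR gene at 0.0828 to 2.33 FPKM, were not tested. At 3 months, limma on log2(FPKM + 0.1) called 0 of the 29 members at an adjusted p under 0.05, where 0.0406% of all tested genes were called, and 1 member had an unadjusted p under 0.05, against 3.39% of tested genes. At 10 months it called 0 members, where 0.0102% of tested genes were called, and 2 members had an unadjusted p under 0.05, against 4.4% of tested genes. The median log2 difference, transgenic minus control, was 0.05 for members and 0.02 for all tested genes at 3 months, with 17 members above 0 and 12 below, and the members' median moved to between -0.06 and 0.13 with 1 library left out. At 10 months the medians were -0.19 and 0.01, with 14 members above 0 and 15 below, and the members' median was -0.01 without the library labelled transgenic 2. Averaged over both ages, limma called 0 members, where 0.0508% of tested genes were called, and 0 members had an unadjusted p under 0.05, against 3.75% of tested genes.

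**Figure D2:**
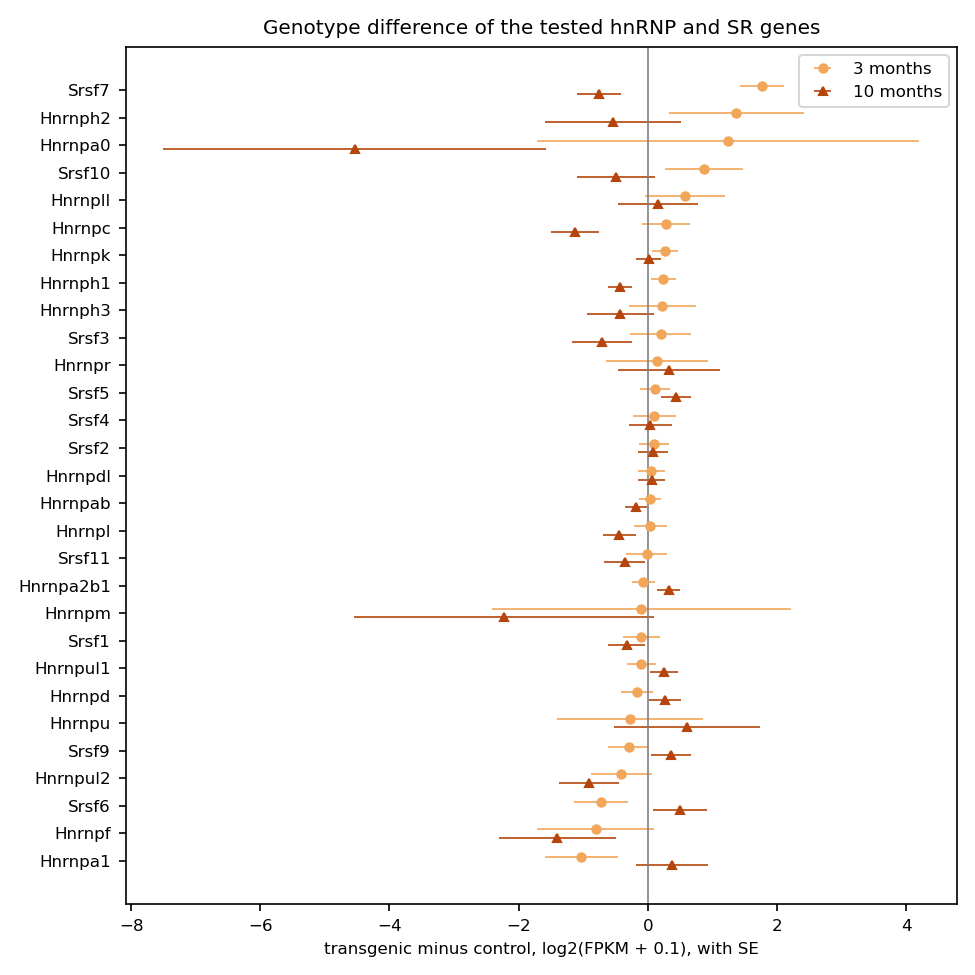
Difference between transgenic and control libraries for the 29 tested members on the log2(FPKM + 0.1) scale, at 3 months (circles) and 10 months (triangles), with standard errors, ordered by the 3-month value. Srsf7 has the highest 3-month value at 1.77 and is below 0 at 10 months, while Hnrnpa0 and Hnrnpm have the widest errors.

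Srsf7, an SR protein that acts in splicing and mRNA export and is known to repress tau exon 10, gave the widest separation among the members at 3 months. It lies on chromosome 17, 80200080 to 80207307 on the minus strand (GRCm38). Its level at 3 months was 16.8, 16.7 and 16.1 FPKM in transgenic libraries and 4.25, 4.93 and 5.21 FPKM in controls. All transgenic libraries were above all controls, with a mean of 16.5 ± 0.401 FPKM against 4.80 ± 0.496 FPKM (SD, n = 3 each). The log2 difference was 1.77 with a standard error of 0.34, and the limma p was 0.000445, or 0.464 after Benjamini-Hochberg adjustment over 9846 genes. The authors' deposited table lists a fold change of 2.99 for Srsf7 at 3 months, with a p of 0.000339 and a q of 0.255.

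At 10 months the order was the opposite. The libraries labelled control held Srsf7 at 7.44, 7.59 and 20.8 FPKM, and those labelled transgenic at 6.03, 6.52 and 6.05 FPKM. The groups did not overlap, but the library labelled control 3 was the highest of all 12, far above the other two of its group. The log2 difference was -0.76 with a standard error of 0.34 (limma p 0.0517, adjusted p 0.969), and -0.27 without that library (adjusted p 1). The authors' deposited table lists a fold change of 0.594 for Srsf7 at 10 months with a q of 0.854.

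The change of the Srsf7 genotype difference with age, the age by genotype interaction, was -2.53 on the log2 scale with a standard error of 0.49 (limma p 0.000409, adjusted p 0.576). Whether these values passed the threshold turned on the 10-month library labelled control 3, whose spread enters the estimate shared by all groups. Without it the 3-month difference of 1.77 had an adjusted p of 0.00331, and the interaction was -2.04 with an adjusted p of 0.0227. With the 3-month libraries fitted alone, the adjusted p of the 3-month difference was 0.0387. Srsf7 was 1 of 35 genes among 9846 (0.355%) whose groups did not overlap at either age and lay in opposite orders, and the only member among them. A similar number, 39 genes and 0 members, did not overlap at either age and lay in the same order. Blood markers were also higher in the 3-month transgenic libraries, at a summed 35.4 to 142 FPKM against 14.9 to 25.1 FPKM in controls, with 3 of the 4 genes not overlapping and 1 gene at 0 in a library. At 10 months the summed endothelial markers were 20.01 to 36.65 FPKM in libraries labelled transgenic against 13.5 to 17.5 FPKM, with 0 of the 4 genes separating the groups alone and 1 gene at 0 in a library. Their part in the Srsf7 values was not tested.

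**Figure D3:**
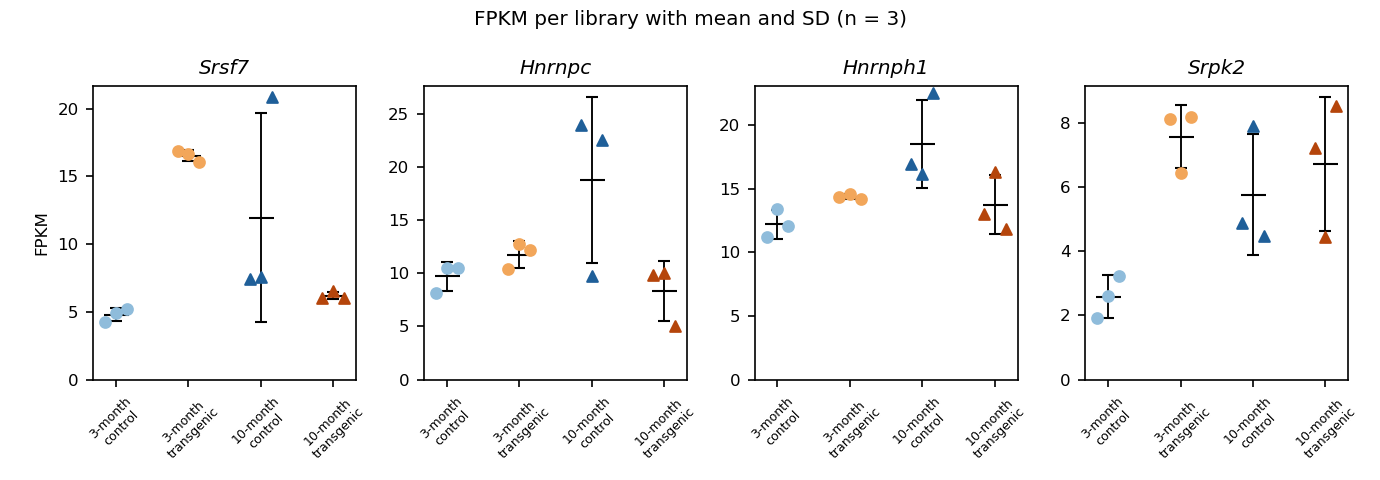
FPKM of Srsf7, Hnrnpc, Hnrnph1 and Srpk2 in each library by group, with the mean and SD of 3 libraries as bars. Srsf7 in the 3-month transgenic libraries sits at 16.1 to 16.8 FPKM, above the 3-month controls, and the 10-month library labelled control 3 is at 20.8 FPKM.

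The other SR genes showed no member with an unadjusted p under 0.05 in any comparison. Srsf2, an SR protein that promotes exon inclusion, was at 17.8, 19.99 and 17.99 FPKM in 3-month controls and 22.2, 20.6 and 17.0 FPKM in 3-month transgenic libraries. At 10 months Srsf2 was at 22.9, 17.0 and 26.3 FPKM in libraries labelled control and 21.5, 18.4 and 30.3 FPKM in those labelled transgenic. The groups overlapped at both ages. Srsf5, an SR protein whose phosphorylation responds to insulin, was at 20.6, 20.9 and 19.3 FPKM against 22.2, 24.4 and 19.3 FPKM at 3 months, controls first. The 10-month values of Srsf5 were 11.3, 20.9 and 19.7 FPKM in libraries labelled control, against 24.1, 21.6 and 22.5 FPKM in those labelled transgenic. All labelled transgenic libraries were above all labelled controls, with a log2 difference of 0.44, a standard error of 0.23 and a limma p of 0.0799 (adjusted p 0.969). Without the library labelled control 1, at 11.3 FPKM, the difference was 0.16 (p 0.349).

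Srsf3, the smallest SR protein and a regulator of splicing and of mRNA export, was at 14.4, 14.9 and 19.1 FPKM in 3-month controls and 18.97, 17.9 and 18.2 FPKM in 3-month transgenic libraries. Its 10-month values were 22.1, 16.7 and 19.9 FPKM against 4.46, 17.7 and 20.9 FPKM, so 1 library labelled transgenic was far below all others. Srsf1, the founding SR protein, was at 9.97, 8.29 and 12.0 FPKM in 3-month controls and 8.98, 8.33 and 10.7 FPKM in 3-month transgenic libraries. At 10 months Srsf1 was at 13.01, 10.2 and 9.51 FPKM against 13.3, 7.50 and 6.31 FPKM, and its groups overlapped at both ages. Srsf6, an SR protein that also acts on tau exon 10, was at 6.07, 13.8 and 14.3 FPKM in 3-month controls and 6.88, 5.36 and 7.06 FPKM in 3-month transgenic libraries. At 10 months Srsf6 was at 4.94, 6.33 and 7.09 FPKM against 13.1, 10.2 and 4.79 FPKM. Its groups overlapped at both ages, and its interaction was 1.23 on the log2 scale with a standard error of 0.59 (limma p 0.0641). Srsf11, another SR gene known to act on tau exon 10, was at 3.29, 3.42 and 4.03 FPKM against 4.99, 2.62 and 3.34 FPKM at 3 months. At 10 months Srsf11 was at 5.27, 5.85 and 3.52 FPKM against 2.74, 4.53 and 4.02 FPKM. Its groups overlapped at both ages too. Of the remaining SR genes, Srsf4 was at 3.61 to 9.94 FPKM, Srsf9 at 3.67 to 8.76 FPKM and Srsf10 at 0.601 to 3.63 FPKM. None of these passed the test at either age.

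Among the hnRNP genes, Hnrnpc and Hnrnph1 had an unadjusted p under 0.05 at 10 months. Hnrnpc, a binder of uridine tracts that keeps cryptic exons out of mRNA, lies on chromosome 14, 52073377 to 52104028 on the minus strand. Its level was 8.14, 10.5 and 10.5 FPKM in 3-month controls, 10.4, 12.7 and 12.2 FPKM in 3-month transgenic libraries, 23.9, 9.78 and 22.5 FPKM in 10-month libraries labelled control, and 9.86, 10.0 and 5.04 FPKM in those labelled transgenic. The 10-month groups overlapped, since the library labelled control 2 lay among those labelled transgenic, and the means were 18.8 ± 7.80 FPKM and 8.30 ± 2.83 FPKM (SD, n = 3). The log2 difference was -1.13 with a standard error of 0.37 (limma p 0.0125, adjusted p 0.969). Leaving out 1 library moved the log2 difference to between -1.54 and -0.80. With each age fitted alone the limma p was 0.0517. The authors' deposited values for Hnrnpc at 10 months, from their own test, are a p of 0.174 and a q of 0.854.

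Hnrnph1, which binds guanine runs and tunes exon choice, lies on chromosome 11, 50376990 to 50386528 on the plus strand. Its level was 11.2, 13.4 and 12.0 FPKM in 3-month controls and 14.3, 14.6 and 14.2 FPKM in 3-month transgenic libraries, so the 3-month groups did not overlap. Its 10-month values were 17.0, 16.1 and 22.5 FPKM in libraries labelled control and 13.04, 16.3 and 11.8 FPKM in those labelled transgenic, where the groups overlapped. The log2 difference was 0.24 with a standard error of 0.19 at 3 months (limma p 0.233) and -0.43 with a standard error of 0.19 at 10 months (p 0.0458, adjusted p 0.969). The 10-month p was above 0.05 in 17 of the 22 alternative settings, at 0.108 with each age fitted alone and 0.178 without the library labelled control 3, where the difference was -0.28. The interaction was -0.66 with a standard error of 0.26 (p 0.0309, adjusted p 0.987). The authors' own test gave Hnrnph1 a p of 0.0256 and a q of 0.904 at 3 months. At 10 months it gave a p of 0.185 and a q of 0.854.

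The most abundant hnRNP genes overlapped between genotypes. Hnrnpul2, a relative of the nuclear scaffold protein hnRNP U, was at 14.7, 13.7 and 39.2 FPKM in 3-month controls, 14.2, 14.3 and 16.7 FPKM in 3-month transgenic libraries, 17.0, 37.3 and 40.5 FPKM in libraries labelled control at 10 months and 18.2, 21.2 and 10.1 FPKM in those labelled transgenic. Its log2 difference at 10 months was -0.91 with a standard error of 0.47 (limma p 0.081, adjusted p 0.969), and -0.59 without the library labelled transgenic 3. Hnrnpk, which binds cytosine-rich RNA, was at 17.2, 20.01 and 17.9 FPKM in 3-month controls, 20.3, 29.9 and 17.6 FPKM in 3-month transgenic libraries, 22.8, 21.2 and 21.7 FPKM in libraries labelled control at 10 months and 20.1, 21.3 and 24.9 FPKM in those labelled transgenic. Hnrnpdl, a relative of Hnrnpd, was at 15.8, 18.3 and 21.5 FPKM, then 19.1, 23.0 and 15.7 FPKM, then 16.0, 23.5 and 21.01 FPKM, then 20.9, 20.5 and 20.9 FPKM in the same order of groups. Neither Hnrnpk nor Hnrnpdl separated the genotypes. Hnrnpa2b1, which carries RNA into dendrites, was at 16.5, 16.6 and 19.4 FPKM, then 13.7, 18.4 and 18.4 FPKM, then 15.8, 15.7 and 20.2 FPKM, then 20.9, 20.1 and 23.2 FPKM. Hnrnpab, another relative of Hnrnpd, was at 14.2, 18.2 and 15.8 FPKM, then 16.9, 15.8 and 16.6 FPKM, then 17.6, 15.9 and 22.3 FPKM, then 16.9, 15.3 and 16.2 FPKM. Both overlapped between genotypes at each age.

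The remaining hnRNP genes were given no unadjusted p under 0.05. Hnrnpa1, a repressor of exon inclusion, was at 20.2, 13.7 and 16.3 FPKM in 3-month controls and 12.6, 3.02 and 13.6 FPKM in 3-month transgenic libraries. The groups did not overlap, but the log2 difference of -1.03 (standard error 0.56, limma p 0.0957, adjusted p 1) became -0.33 without 3-month transgenic 2, the library at 3.02 FPKM. Hnrnpl, which binds CA repeats, was at 7.19 to 18.6 FPKM over the 12 libraries, Hnrnpd, a binder of AU-rich elements, at 6.24 to 11.1 FPKM, and Hnrnpul1 at 6.53 to 10.0 FPKM. These genes were steady beside the next group. Hnrnph3 ranged from 3.05 to 11.7 FPKM, Hnrnpf, a guanine-run binder, from 0.310 to 8.75 FPKM, and Hnrnpu, the scaffold protein of the family, from 0.297 to 9.50 FPKM. Hnrnpr was at 1.159, 1.98 and 7.67 FPKM in 3-month controls, 1.54, 8.28 and 1.87 FPKM in 3-month transgenic libraries, 1.79, 1.51 and 1.01 FPKM in libraries labelled control at 10 months and 3.17, 1.10 and 1.55 FPKM in those labelled transgenic, so 1 library of each 3-month group stood above the rest. Hnrnpll, the Hnrnpl relative that regulates lymphocyte splicing, was at 0.393 to 2.54 FPKM.

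Non-overlap between genotypes was seen for 3 members at 3 months, Srsf7 and Hnrnph1 higher and Hnrnpa1 lower in transgenic libraries, against 7.98% of tested genes. The same was seen at 10 months for 4 members, Srsf5 higher and Srsf7, Hnrnpl and Hnrnpm lower in libraries labelled transgenic, against 8.26% of tested genes. For Hnrnpm this rests on values of at most 0.0331 FPKM in 5 of the 6 libraries.

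Some members were high in a few libraries and near 0 in others; this was looked for after the values were seen. Hnrnpa0, an hnRNP gene of the A/B group with 1 annotated transcript, was at 0, 0 and 35.7 FPKM in 3-month controls, 0, 3.94 and 11.6 FPKM in 3-month transgenic libraries, 16.1, 11.2 and 35.7 FPKM in libraries labelled control at 10 months and 0, 51.3 and 0 FPKM in those labelled transgenic. It was listed at 0 in 5 libraries of 3 groups. Hnrnpm, a splicing regulator, was at 8.10 FPKM in 3-month control 2 and 9.68 FPKM in 3-month transgenic 2. It was at 9.82 FPKM in the 10-month library labelled control 3, and at most 0.0755 FPKM in the other 9. Hnrnpm overlaps March2 on the same strand, which shares 14.0% of its 31-base words and was at 0.608 to 7.13 FPKM. A gap of at least 1 on the log2 scale, with at least 2 libraries on each side, was found for 4 of the 29 tested members (13.8%) and for 33.7% of the 9846 tested genes. The genes were Hnrnpm, Hnrnpa0, Hnrnpr and Srsf7, with gaps of 5.55, 5.33, 1.25 and 1.07. Hnrnpr and Srsf7 were not near 0 in any library, with lowest values of 1.01 and 4.25 FPKM. Hnrnph2, a close relative of Hnrnph1 on the X chromosome, was at 24.4 FPKM in 3-month transgenic 1 and at 0.786 to 3.27 FPKM in the other 11.

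**Figure D4:**
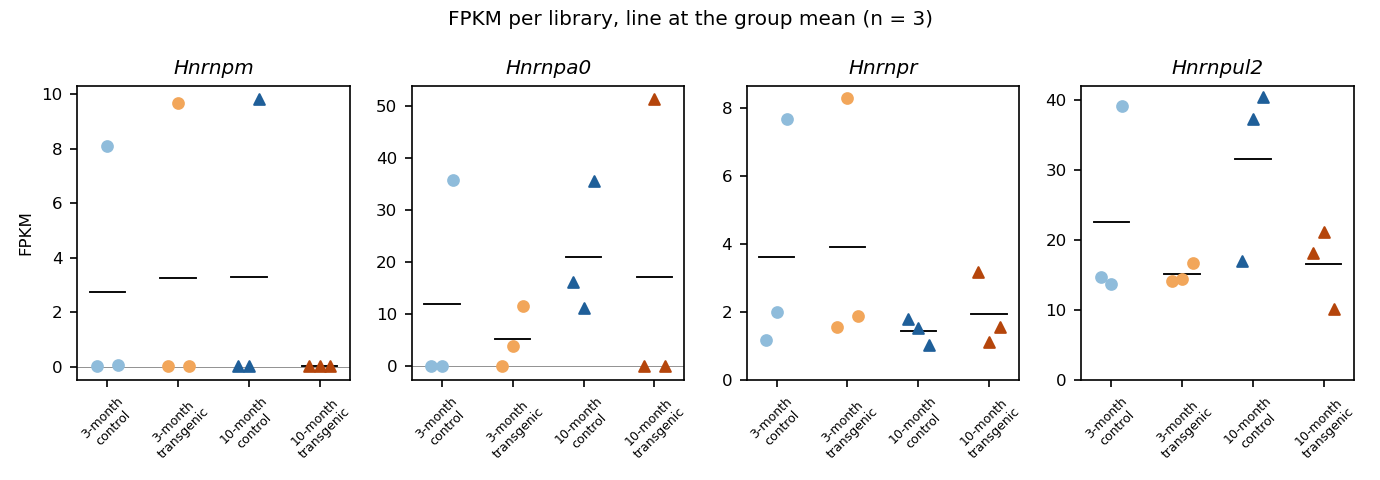
FPKM of Hnrnpm, Hnrnpa0, Hnrnpr and Hnrnpul2 in each library by group, with a line at the mean of 3 libraries. Hnrnpm is at 8.10 to 9.82 FPKM in 3 libraries of 3 groups and near 0 in the other 9.

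Several members have near-identical copies elsewhere in the genome, between which reads can be split. Of the 31 members, 10 shared over 10% of their 31-base words with other genes. Of these, 3 had a copy with a mean of at least 5 FPKM, a limit chosen after the values were seen. Stretches of 60 bases are shown because few bases separate each gene from its copy, with the differing bases in capitals. They come from the GENCODE coding sequence of the gene and the matching transcript sequence of the copy, on GRCm38. Each is the first such stretch with at least 2 differences, so it differs more than the pair does over its whole aligned length.
Hnrnpa3: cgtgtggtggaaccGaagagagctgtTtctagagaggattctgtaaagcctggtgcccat
Gm6793: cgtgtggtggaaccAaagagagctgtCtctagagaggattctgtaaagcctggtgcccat
Hnrnpk: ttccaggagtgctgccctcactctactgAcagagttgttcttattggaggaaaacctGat
Gm7964: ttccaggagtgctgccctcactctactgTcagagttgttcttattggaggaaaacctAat
Srsf5: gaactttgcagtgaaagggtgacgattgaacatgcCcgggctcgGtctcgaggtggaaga
Gm12966: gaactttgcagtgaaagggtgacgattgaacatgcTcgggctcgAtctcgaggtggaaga
Hnrnpa3, an hnRNP of the A/B group, was listed at 0 in all 12 libraries. Its copy Gm6793 on chromosome 8, 112013433 to 112015036 on the minus strand, matches it at 99.3% of 1056 aligned coding bases, with 7 mismatches. Gm6793 was at 0, 19.5 and 23.8 FPKM in 3-month controls, 19.1, 24.7 and 1.56 FPKM in 3-month transgenic libraries, 0, 21.3 and 24.8 FPKM in libraries labelled control at 10 months and 22.1, 27.6 and 20.98 FPKM in those labelled transgenic. Gm5641, a processed pseudogene, shares more of the 31-base words of Hnrnpa3 than Gm6793 does (26.6% against 22.5%) and was at 0 to 13.0 FPKM, and Gm5940 reached 9.26 FPKM. Which of these genes the reads came from cannot be told apart here. Gm7964, a processed pseudogene of Hnrnpk on chromosome 7, differs from it at 10 of 1377 aligned bases and was at 0 to 31.4 FPKM. Hnrnpk alone was at 17.2 to 29.9 FPKM, and the sum of the pair at 17.9 to 51.7 FPKM. Gm12966, a processed pseudogene of Srsf5 on chromosome 4, differs at 8 of 810 bases and was at 0 to 20.4 FPKM. The sum of Srsf5 and Gm12966 was 22.3 to 41.6 FPKM. At 10 months this sum was 22.3, 22.9 and 31.9 FPKM in libraries labelled control. In those labelled transgenic it was 37.4, 41.6 and 40.2 FPKM, so the groups did not overlap. At 3 months the sums overlapped, at 41.0, 36.5 and 32.1 FPKM in controls against 40.0, 24.4 and 34.8 FPKM. Srsf7 shared 2.35% of its words with other genes. The share was larger for Hnrnpc at 13.6%, Hnrnph2 at 21.9%, Hnrnpa1 at 29.3% and Hnrnpf at 38.5%.

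**Figure D5:**
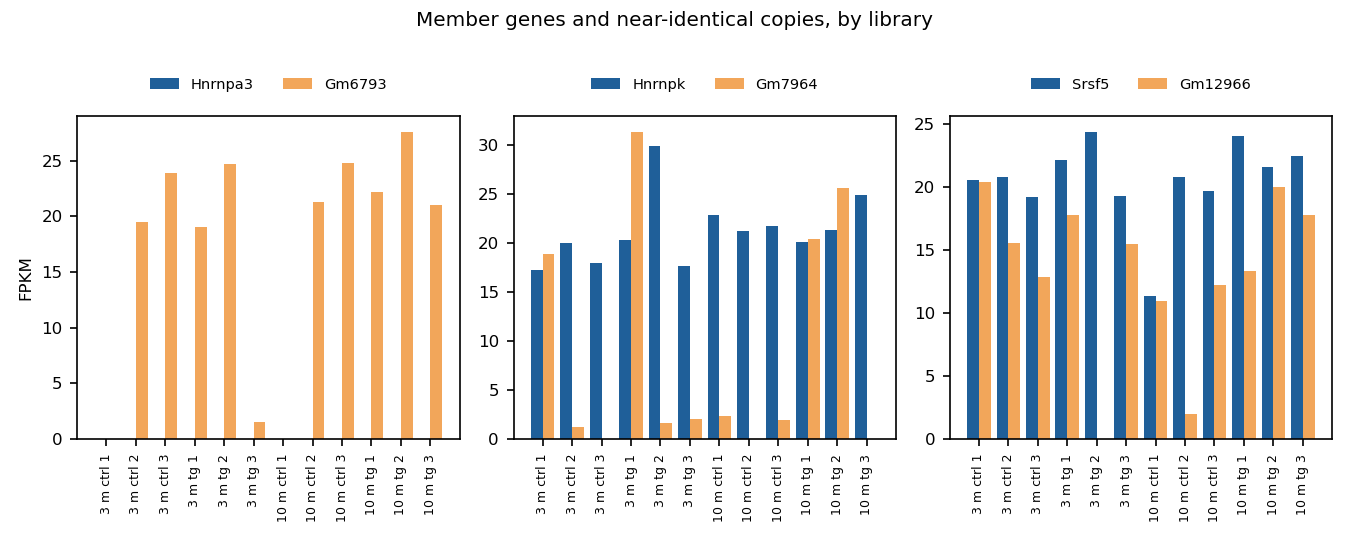
FPKM of Hnrnpa3, Hnrnpk and Srsf5 (dark) and of a near-identical copy of each (light) in each of the 12 libraries. Hnrnpa3 has no bar in any library while Gm6793 reaches 27.6 FPKM, and Gm7964 ranges from 0 to 31.4 FPKM beside a steadier Hnrnpk.

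Many members have annotated transcripts that are targets of nonsense-mediated decay. In GENCODE M21 this class was annotated for 9 of 11 SR genes (81.8%), 10 of 20 hnRNP genes and 4574 of 21951 protein-coding genes (20.8%). Retained-intron transcripts were annotated for 8 of 11 SR genes (72.7%), 14 of 20 hnRNP genes (70.0%) and 41.5% of protein-coding genes. Members ranged from 1 annotated transcript for Hnrnpa0 to 34 for Hnrnpk, and the shares are not matched for the number of transcripts. The files give 1 value per gene, so levels of single transcripts were not analysed here.

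Other splicing genes were read from lists of SR kinases, SR-related proteins, neuronal splicing regulators, hnRNP-like proteins and core spliceosome proteins. limma called 0 genes of any list at an adjusted p under 0.05 in the genotype comparisons. At an unadjusted p under 0.05 it picked out 3 of the 89 tested list genes (3.37%) at each age, beside Mapt, against 4.4% of all tested genes at 10 months and 3.39% at 3 months. These shares are near the background, so the values of single genes are a description and show nothing particular to the lists. Srpk2, a kinase that phosphorylates SR proteins, was at 8.12, 6.44 and 8.18 FPKM in 3-month transgenic libraries and 1.91, 2.60 and 3.24 FPKM in controls. The groups did not overlap, and the log2 difference was 1.54 with a standard error of 0.33 (limma p 0.000826, adjusted p 0.54). At 10 months Srpk2 overlapped, at 7.22, 4.44 and 8.53 FPKM in libraries labelled transgenic against 4.88, 7.93 and 4.49 FPKM. Elavl3, a neuronal RNA-binding protein, was at 29.5, 21.6 and 22.6 FPKM in 3-month transgenic libraries and 18.6, 5.13 and 2.90 FPKM in controls, a log2 difference of 1.88 with a standard error of 0.57 (p 0.00814). Rnps1, which joins the exon junction complex, differed by 0.93 on the log2 scale at 3 months (standard error 0.38, p 0.0363), with p up to 0.141 when 1 library was left out.

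At 10 months Celf5, a neuronal splicing regulator of the CELF family, was at 4.05, 5.71 and 1.40 FPKM in libraries labelled transgenic and 11.1, 14.8 and 19.2 FPKM in those labelled control. The groups did not overlap, and the log2 difference was -2.16 with a standard error of 0.53 (limma p 0.0022, adjusted p 0.969). Clk2, a nuclear kinase of SR proteins, was at 0.249, 0.146 and 1.60 FPKM against 2.64, 1.96 and 2.94 FPKM, a log2 difference of -2.29 with a standard error of 1.01 (p 0.0473). It was -1.17 with a pseudocount of 1, and its p was above 0.05 in 10 settings, up to 0.151 without the library labelled transgenic 2. Luc7l3, a protein tied to the U1 snRNP, was at 17.2, 19.9 and 17.6 FPKM against 18.2, 9.36 and 8.89 FPKM, a log2 difference of 0.66 with a standard error of 0.25 (p 0.0267), with p up to 0.106 when 1 library was left out. The median log2 differences of the 5 lists lay between -0.27 and 0.03 at 10 months and between -0.09 and 0.12 at 3 months.

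The age comparisons set 10 months against 3 months within each genotype label, with each age in a separate deposited table, so age and table cannot be told apart. In control libraries limma called 0 of the 29 members, where 0.0305% of tested genes were called, and 3 members had an unadjusted p under 0.05, against 4.19% of tested genes. These were Srsf7 with a log2 difference of 1.13 (standard error 0.34, p 0.00836), Hnrnph1 with 0.59 (0.19, p 0.0106) and Hnrnpc with 0.85 (0.37, p 0.0453), each with an adjusted p of 0.994. Srsf7 without the 10-month library labelled control 3 was at 0.64. For Hnrnpc the limma p was above 0.05 in 13 alternative settings, up to 0.158 when 1 library was left out. For Srsf7 and Hnrnph1 it was above 0.05 in 0 settings. In transgenic libraries limma called 0 members, where 0.0203% of tested genes were called, and 1 member, Srsf7, had an unadjusted p under 0.05, against 4.31% of tested genes. Its log2 difference was -1.40 with a standard error of 0.34 (p 0.00227, adjusted p 0.721, and 0.0341 without the 10-month library labelled control 3). Non-overlap between ages was seen in controls for 3 members, Hnrnph1, Hnrnpk and Srsf7, all higher at 10 months, against 10.1% of tested genes in either direction and 6.8% in that direction. In transgenic libraries it was seen for 3 members, Hnrnpa2b1 higher and Hnrnpc and Srsf7 lower at 10 months, against 9.43% of tested genes. For the interaction, limma called 0 members, where 0.0508% of tested genes were called, and 3 members, Srsf7, Hnrnpc and Hnrnph1, had an unadjusted p under 0.05, against 3.32% of tested genes. The limma p of this interaction was above 0.05 in 4 alternative settings for Hnrnpc, 8 for Hnrnph1 and 0 for Srsf7. The interaction and the 4 single comparisons share libraries, so their values are not independent of each other.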

How the data were processed

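Whole cortex of 12 mice was sequenced from rRNA-depleted, strand-specific total RNA libraries, per the labels' protocols. The authors deposited FPKM values per gene and library in 1 table per age. As the submitters' processing notes have it, the tools were StringTie 1.3.0, HISAT2 2.0.4, R 3.4.2 and SAMtools, on builds mm10 and GRCm38. Neither the annotation nor the order of steps is given in the sources used here. The deposited tables also hold the authors' fold change as a ratio, its log2 value, p-values and q-values, from a test that is not stated per the file headers. Groups and replicate numbers came from the labels.

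All 12 libraries were fitted with limma 3.58.1 in R 4.3.3 on log2(FPKM + 0.1), with 1 mean per group and moderated variances (trend and robust). Genes whose mean reached 1 FPKM in any of the 4 groups were tested, and p-values were adjusted over all 9846 of them by the Benjamini-Hochberg method. FPKM is no count, so no count test was run, and fold changes of low genes are understated on this scale. Relative depth, read from steps in the low values, reached 1.373 times that of the 10-month library labelled control 1, but only 6.5% to 9.4% of low genes fell on a step. Transcript classes, overlaps and shared 31-base words came from GENCODE M21 on GRCm38. Values in every library are given for members with an unadjusted p under 0.05, the 5 most abundant hnRNP and SR genes, genes with a library under an eighth of their median where that median was at least 5 FPKM, and SR genes known to act on tau exon 10. Hnrnpm, Hnrnpr and Hnrnph2 were added after their values were seen. The members and lists were chosen with earlier results of these data known. Alternatives covered the pseudocount, filter, scaling, zeros, moderation, a replicate block, each age alone and each library left out.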

Additional observations from a re-analysis of the deposited data

Results flagged for a closer look

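Srsf7 was flagged because its groups by label did not overlap at either age and lay in opposite orders. The difference of the 2 genotype effects was -2.53 on the log2 scale, with a standard error of 0.49 and a limma p of 0.000409, which missed the threshold after adjustment (0.576). At 3 months 3 of 3 transgenic libraries were above all controls, and at 10 months 3 of 3 libraries labelled transgenic were below all libraries labelled control. Without the 10-month library labelled control 3, the 10-month difference went from -0.76 to -0.27 (adjusted p 1), and the difference of the 2 effects was -2.04 with an adjusted p of 0.0227. Mapt did not follow the labels at 10 months, and its part in this value was not tested.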

How the results depend on the processing

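No log2 difference of a single named gene changed direction under any alternative, among those followed. The 3-month difference of Hnrnph1 was not followed under the alternatives. The members' median log2 difference, close to 0, did: at 3 months it was 0.05, and -0.06 to 0.13 with 1 library left out; averaged over both ages it was 0.03, -0.02 with a filter at 5 FPKM and -0.11 to 0.05 with 1 library left out. At 10 months it was -0.19, and -0.33 to -0.01 with 1 library left out. The 29 tested members gave 0 calls under every alternative but these, each of which called Srsf7: at 3 months, 1 with each age fitted alone and 0 to 1 with 1 library left out; for the interaction and for age in transgenic libraries, 0 to 1 with 1 library left out. In each case the library left out was the one labelled control 3 at 10 months.

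Counts over all tested genes moved more. At 10 months 1 gene was called, against 2 without a filter, 0 with a filter at 5 FPKM, 0 with zeros set to missing, 0 with each age alone and 0 to 8 with 1 library left out. At 3 months 4 were called, against 9 without a filter, 2 with a filter at 5 FPKM, 2 with zeros missing, 14 with each age alone and 4 to 12 with 1 library left out. Averaged over both ages 5 were called, against 9, 2 and 3 under the filter and zero settings and 1 to 10 with 1 library left out. The interaction called 5, against 2 with a pseudocount of 0.01, 9, 1 and 2 under the filter and zero settings and 2 to 11 with 1 library left out. Age in controls called 3, against 7, 0 and 1 and 3 to 10; age in transgenic libraries called 2, against 7 without a filter, 6 without trend and robust moderation and 2 to 13. The cause was not tested.

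With the replicate number as a block, 0 genes were called at 10 months, 1 averaged over both ages and 1 for the interaction, and 0 members in all 6 comparisons. The numbers are not taken to pair the mice: the 18 pairs sharing a number had deviations correlated at -0.123 to 0.0939, and the 36 other pairs at -0.135 to 0.151. Absolute depth is unknown, so no limit of detection is given, and 3 mice per group limit the precision.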

Other observations

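The highest value of the 12 libraries stood in the 10-month library labelled control 3 for 6 of the 30 members above 0, and in 3-month transgenic 1 for 5. Over the 9846 tested genes these libraries held the highest value for 6.89% and 8.71%. The 10-month library labelled transgenic 3 held it for 21.2% of tested genes, the largest share, and for 2 members. The lowest value stood in 3-month control 1 alone for 7 members and in the 10-month library labelled transgenic 3 alone for 5, and over all tested genes for 8.92% and 11.5%.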
